A study of Mus musculus with 12 samples.

Results

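H3K27ac was compared between mouse embryonic stem cells with a shortened ALKBH5 and wild-type cells, using the 4 H3K27ac libraries among the 12 libraries of the series. The members were taken by their labels alone, as the libraries of this mark. Each genotype has 2 libraries, and peaks on chromosomes 1 to 19 were used. All libraries are from E14TG2a, a mouse embryonic stem cell line. The 2 groups are WT and Alkbh5 del-cIDR, cells in which a disordered region of ALKBH5, called the cIDR in the labels, is deleted. Cells of both groups were grown in serum medium with LIF at 1000 U/ml, the MEK inhibitor PD0325901 at 1 µM and the GSK3 inhibitor CHIR99021 at 3 µM. The labels do not say whether a genotype is 1 clone, or whether the replicates were separate cultures, so p-values reflect only library-to-library spread, and that spread may be technical. The question behind the series is what disordered regions of demethylases do for their choice of genomic targets.

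ALKBH5 removes N6-methyladenosine from RNA. H3K27ac, acetylation of lysine 27 of histone H3, is laid down mainly by the acetyltransferases p300 and CBP and marks active promoters and active enhancers. H3K4me3, trimethylation of lysine 4 of the same histone, is found chiefly at promoters. H3K27ac together with H3K4me3 therefore mostly lies at promoters, and H3K27ac without H3K4me3 mostly at distal elements such as enhancers. Enhancers of genes that define a cell type often lie in clusters. CUT&Tag, used for both marks, inserts sequencing adapters beside the nucleosomes that an antibody binds.

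Merging the peaks of the 4 libraries wherever they overlapped by 1 bp or more gave 48955 regions. A region with an H3K4me3 peak of any of the 4 H3K4me3 libraries was placed in the class with H3K4me3, which held 16272 regions (33.2%), and the other 32683 (66.8%) formed the class without. Sites of the first class recurred between libraries far more. Of them 8145 (50.1%) had an H3K27ac peak in all 4 libraries and 3413 (21.0%) in a single library. Without H3K4me3, 4949 (15.1%) were found in all 4 libraries and 19349 (59.2%) in a single one. Regions of all 4 libraries are called shared here.

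The lists held 27883 and 32353 peaks in del-cIDR and 25153 and 22810 in WT, with a shortest peak of 267 to 292 bp. The lists hold no read counts, so depth is unknown and no interval for counting error was given. The median −log10 q of the lists was 5.85 and 5.90 in del-cIDR and 5.05 and 5.03 in WT, higher in both mutant libraries. Its part in the results, like that of depth, was not tested. No region was assigned to a gene, because the gene table at hand is on GRCm38.p6 and the peaks are on GRCm39. For the same reason the stem cell identity of the libraries was not checked against marker genes, and no sequences are shown.

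At H3K4me3 sites, more H3K27ac peaks were called in the mutant. The del-cIDR libraries had 12741 and 14072 such peaks, and the WT libraries 11098 and 10762. Both mutant libraries lay above both WT libraries. The means were 13406.5 ± 941 and 10930 ± 238 (SD, n = 2 each), 1.23-fold more in del-cIDR, with an exact permutation p of 0.333, two-sided, the smallest that 2 libraries against 2 can give. Every exact permutation test below has this limit, so none can pass 0.05. Without H3K4me3 there were 15142 and 18281 peaks in del-cIDR and 14055 and 12048 in WT. Again the genotypes did not overlap, with means of 16711.5 ± 2220 and 13051.5 ± 1419 (SD, n = 2 each, 1.28-fold, exact permutation p = 0.333). Covered length was 10.5 and 11.5 Mb against 8.77 and 7.98 Mb with H3K4me3, and 9.21 and 10.5 Mb against 8.43 and 6.77 Mb without.

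The 2 classes parted when every list was reduced to 22810 peaks, the length of the shortest, by −log10 p. With H3K4me3 the mutant still had more peaks, 11745 and 12183 against 10663 and 10753 (means 11964 ± 310 and 10708 ± 63.6, SD, n = 2 each, exact permutation p = 0.333). Without H3K4me3 the order turned, with 11065 and 10627 in del-cIDR and 12147 and 12057 in WT (means 10846 ± 310 and 12102 ± 63.6, SD, n = 2 each, exact permutation p = 0.333). At a fixed length a gain in one class is a loss in the other, so these 2 differences are a single measurement.

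**Figure D1:**
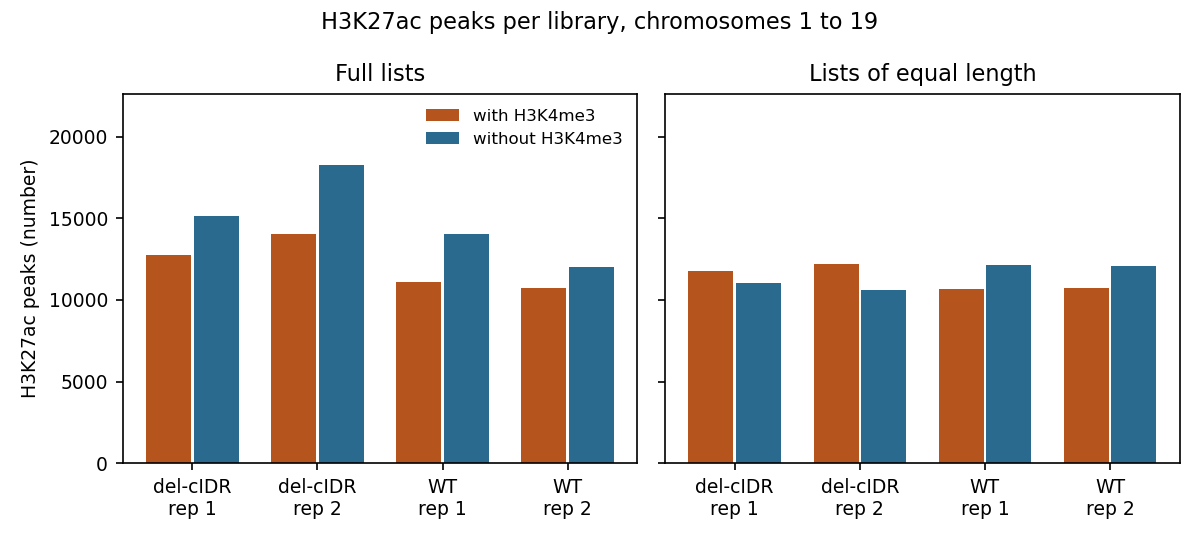
H3K27ac peaks per library (bars, number of peaks) in regions with and without H3K4me3, from the full lists on the left and from lists of 22810 peaks each on the right. In the full lists both del-cIDR libraries exceed both WT libraries in each class, and at equal length only the class with H3K4me3 keeps that order.

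The share of peaks at H3K4me3 sites was followed down each list, ranked by −log10 p. Among the top 5000 peaks it was 75% and 77.2% in del-cIDR and 69.4% and 71.2% in WT. Among the top 10000 it was 68.6% and 70.3% against 61.8% and 63.3%, and among the top 20000 55.1% and 56.8% against 49.9% and 50.7%. At each of 5 lengths both mutant libraries were above both WT libraries, by 5.49 to 6.88 percentage points on average (exact permutation p = 0.333 at each). The lengths are nested and not separate tests. Over the full lists, which differ in length, the share was 45.7% and 43.5% in del-cIDR and 44.1% and 47.2% in WT, with the genotypes overlapping (exact permutation p = 0.667).

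**Figure D2:**
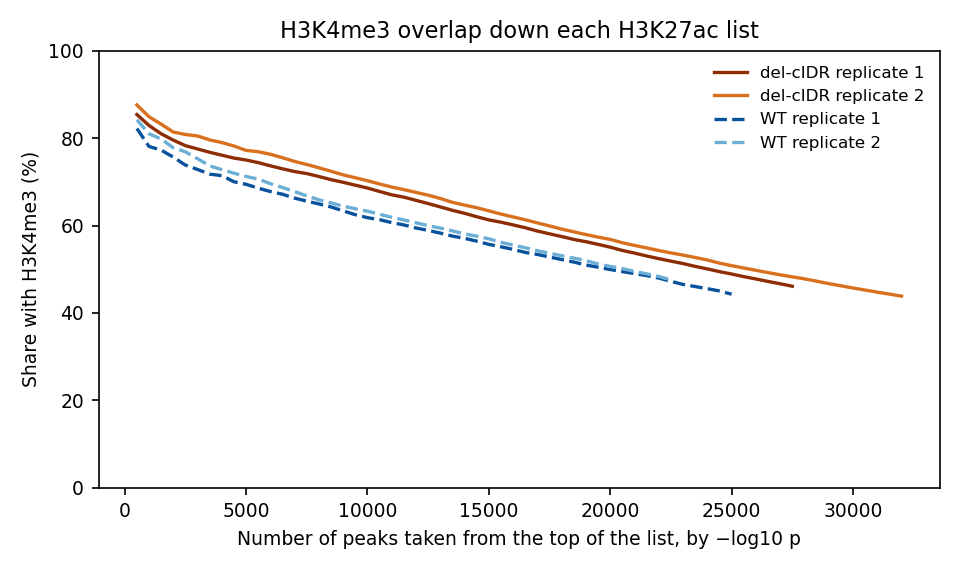
Share of H3K27ac peaks that lie in regions with H3K4me3 (y axis, percent) against the number of peaks taken from the top of each list (x axis), 1 line per library. The share falls down each list, and the 2 del-cIDR lines stay above the 2 WT lines at equal length, as in the values at 5000 to 20000 peaks.

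The order of strength was also read among shared regions, where the same 13094 regions are ranked in each library. Which regions count as shared still depends on the length of each list, and these ranks were not taken at equal list length. Regions with H3K4me3 had a median percentile of fold enrichment of 57.3 and 58.3 for del-cIDR, against 53.6 and 54.5 for WT. Those without H3K4me3 stood at 37.0 and 35.4 in del-cIDR and 43.4 and 42.0 in WT. Sites with H3K4me3 thus ranked higher among shared H3K27ac sites in both mutant libraries (means 57.8 ± 0.772 and 54.0 ± 0.608, SD, n = 2 each, exact permutation p = 0.333), and the other class ranked lower by the same construction.

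Presence was compared next, counting a region as found only in a genotype when both of its libraries had a peak and neither library of the other did. With H3K4me3, del-cIDR alone had 1194 regions and WT alone had 168, a ratio of 7.11. These are 7.34% and 1.03% of the regions of that class. Without H3K4me3, del-cIDR alone had 1852 and WT alone had 741, a ratio of 2.50, or 5.67% and 2.27% of the class. Over all regions the shares were 6.22% and 1.86%. The 2 pairings that mix the genotypes gave 172 and 323, and 149 and 365, regions with H3K4me3, where the larger number in each belongs to the pair holding del-cIDR replicate 2. The genotype total of 1362 was 2.75 and 2.65 times the mixed totals of 495 and 514. Without H3K4me3 the genotype total of 2593 was 1.94 times each mixed total of 1335.

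At equal list length the excess in the mutant remained with H3K4me3 only. There del-cIDR alone had 847 regions and WT alone had 256, a ratio of 3.31, and the total of 1103 compares with 511 and 487 in the mixed pairings. Without H3K4me3 the counts were 922 and 998, a ratio of 0.924, and their total of 1920 compares with 1043 and 995. So the libraries still parted by genotype at sites without H3K4me3, but in both directions about equally. A stricter rule asked for a −log10 q of 5 or more in each library of a genotype and no peak at all in the other. The counts were 367 and 21 with H3K4me3 (30.7% and 12.5% of the specific regions of the full lists), and 369 and 84 without (19.9% and 11.3%). This cut lies just below the medians of the WT lists, 5.05 and 5.03, and further below those of del-cIDR, 5.85 and 5.90. It is therefore easier to pass in the mutant lists, and it was not applied at equal list length.

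**Figure D3:**
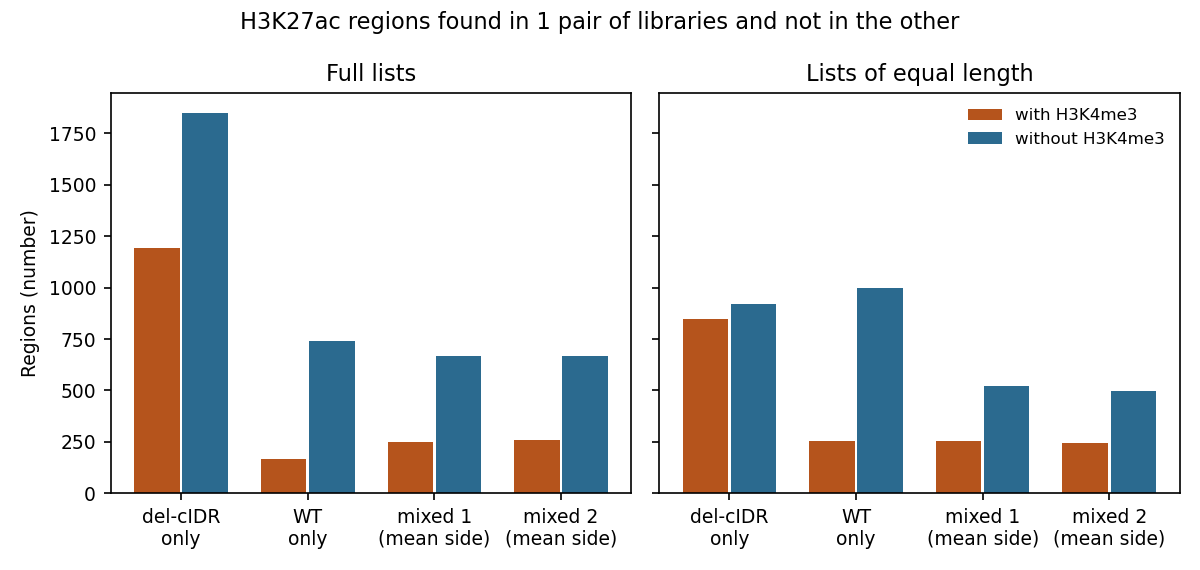
H3K27ac regions (number, y axis) with a peak in both libraries of 1 pair and in neither of the other, with and without H3K4me3. Bars show the 2 genotypes and, for each mixed pairing, the mean of its 2 sides. In the full lists on the left del-cIDR stands above all others in both classes, and at equal length on the right this holds only with H3K4me3.

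In the full lists, regions missed by a single library were more often missed by a WT library. With H3K4me3, 1064 regions were missed by WT replicate 2 alone and 849 by WT replicate 1 alone. Del-cIDR replicate 2 alone missed 129 and del-cIDR replicate 1 alone missed 301. Without H3K4me3 these counts were 1234 and 824 against 403 and 661. The ratio of regions missed by a WT library to regions missed by a mutant library was 4.45 with H3K4me3 and 1.93 without. In both classes the counts followed list length, with the longest list missing the fewest and the shortest the most. They were not taken at equal list length.

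Leaving out a library lets more regions qualify by construction. Without del-cIDR replicate 1 the counts for the mutant and for WT were 2859 and 298 with H3K4me3, and 8933 and 1138 without. Omitting del-cIDR replicate 2 gave 2115 and 467, and 6692 and 1404. Omitting WT replicate 1 gave 2265 and 575, and 3082 and 3989, and omitting WT replicate 2 gave 2044 and 700, and 2663 and 5207. With H3K4me3 the mutant had more regions in each case, and without H3K4me3 the genotype left with a single library had more.

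Genotype-specific sites were mostly of middling to low strength. With H3K4me3, the median percentile of fold within a list was 45.7 for regions of del-cIDR alone, 42.1 for those of WT alone and 72.2 for shared regions. Without H3K4me3 it was 38.1, 36.4 and 59.9. The mixed pairings gave 40.2 to 44.1 and 31.6 to 34.9. Among the strongest regions with H3K4me3, at percentile 75 or above, 85.9% were shared, 96 (2.25%) belonged to del-cIDR alone and 15 (0.352%) to WT alone. Specific sites were most frequent between percentiles 25 and 50, where 482 (11.2%) belonged to del-cIDR alone and 72 (1.67%) to WT alone. Their merged width was 641.5 bp (del-cIDR only) and 611 bp (WT only) with H3K4me3, against 1120 bp for shared regions, which merge peaks of 4 libraries.

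The regions named here are the 6 strongest of each class and direction by mean percentile of fold, a ratio over background that the authors' caller gave within each library. With H3K4me3 and only in del-cIDR, chr6:33036511-33037310 led, with folds of 17.8 and 16.4 in the 2 mutant libraries, at percentiles 99.96 and 99.9 of their lists. It was covered by 711 and 800 bp of peak, and no WT library had a peak there. The nearest shared H3K27ac region was 90.2 kb away. The next, chr9:88948639-88949455 and chr3:55884277-55885013, lay 119 kb and 986 kb from a shared region. These 3 sites lay farther from a shared region than the median del-cIDR-only region with H3K4me3, at 27.3 kb. Their distance to other H3K27ac regions was not measured. Each had H3K4me3 in all 4 H3K4me3 libraries. The fourth, chr2:164546809-164547484, had folds of 9.96 and 8.88 and differed in its H3K4me3, which was called in a single library, of WT. The fifth and sixth, chr14:33168658-33169337 (folds 8.23 and 9.90) and chr4:139057832-139058374 (8.29 and 9.11), had H3K4me3 in all 4 H3K4me3 libraries. None of the 6 overlapped an H3K9me3 peak.

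Only in WT with H3K4me3, chr3:106580037-106580903 led with folds of 8.96 and 8.10. At chr6:116457349-116458057 the folds were 7.16 and 8.25, H3K4me3 was present in 3 libraries, and H3K9me3 was called in both del-cIDR libraries and 1 of WT. At chr4:31777374-31777742 the folds were 7.81 and 6.998. The replicates differed more at the others. At chr7:40824333-40825276 the folds were 12.3 and 6.30, with 944 bp under the peak in WT replicate 1 and 315 bp in replicate 2. At chr17:38164294-38164617 the folds were 5.86 and 10.4, and at chr8:78633605-78634166 they were 5.78 and 10.8. The last of these had H3K9me3 in 1 library of each genotype.

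Without H3K4me3 and only in del-cIDR, the strongest was chr18:84643573-84643900, with folds of 10.2 and 12.4, 34.9 kb from the nearest H3K4me3 peak. The next strongest pair lay close together on chromosome 8, at chr8:20137819-20138525 (folds 8.98 and 9.03) and chr8:20051643-20052107 (8.39 and 9.72), 5.18 and 4.87 kb from an H3K4me3 peak. The first of them overlapped H3K9me3 in all 4 libraries of that mark and the other in both WT libraries. The others, chr3:35683949-35684275, chr8:119120658-119121481 and chr15:31176696-31176999, were 124, 109 and 47.1 kb from H3K4me3 and carried no H3K9me3. Their folds were 8.33 and 9.81, 8.38 and 9.57, and 7.77 and 9.24.

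Only in WT without H3K4me3, chr18:59863240-59863521 stood out with folds of 12.04 and 14.2 over just 282 and 272 bp, 554 kb from the nearest H3K4me3 peak. The next strongest, chr2:39427105-39427608, had folds of 6.805 and 7.70 and overlapped H3K9me3 in 1 WT library. The region chr17:85186040-85187410 was the widest of the 6, with 1350 and 1359 bp under peaks and folds of 6.03 and 7.78. The remaining 3 were chr19:20921769-20922615 (folds 6.69 and 7.82), chr13:118842025-118842669 (7.91 and 6.65) and chr6:43358923-43359401 (7.01 and 6.12). All 24 named regions were still specific to their genotype when peaks within 1000 bp were merged.

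The H3K4me3 libraries are separate from the H3K27ac libraries and were read at the same sites. Where H3K27ac was found only in del-cIDR, an H3K4me3 peak was present at 87.3% and 90.5% of the 1194 regions in the del-cIDR H3K4me3 libraries and at 83.4% and 84.3% in the WT ones. Where it was found only in WT, the shares were 66.1% and 67.3% of 168 regions in del-cIDR and 81.0% and 86.3% in WT. In shared regions they were 87.6% and 89.5% against 89.7% and 90.1%. Both sets of specific regions had H3K4me3 more often in the genotype with acetylation, by 4.98 and 17.0 percentage points (exact permutation p = 0.333 for each). At shared regions the share was 1.28 percentage points lower in del-cIDR by mean (88.6% ± 1.33 and 89.9% ± 0.286, SD, n = 2 each, exact permutation p = 0.333). Most of the del-cIDR-only sites nonetheless had H3K4me3 in every library, 900 of 1194 (75.4%) against 88 of 168 (52.4%) of the WT-only sites and 6519 of 8145 (80.0%) of the shared ones. An H3K4me3 peak in both del-cIDR and neither WT library was found at 40 of the 1194 and at 3 of the 168 regions, and the reverse at 11 and 15.

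The H3K4me3 peaks themselves were of middling strength where H3K27ac was found only in del-cIDR. Their median percentile of fold was 56.4 and 56.1 in the del-cIDR and 58.6 and 59.1 in the WT H3K4me3 lists, close to the 60.6 to 60.7 at shared sites. Where H3K27ac was found only in WT the H3K4me3 peaks were weaker, at percentiles 34.8 and 40.8 of the del-cIDR H3K4me3 lists and 41.3 and 37.7 of the WT ones. The H3K4me3 peaks were 984 to 998 bp wide (median) at del-cIDR-only sites, 725 to 818 bp at WT-only sites and 1174 to 1201 bp at shared sites.

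H3K9me3, a mark of heterochromatin and silenced repeats profiled by CUT&RUN in the same cells, overlapped few of these sites. With H3K4me3, a peak of any H3K9me3 library lay at 15 of the 1194 del-cIDR-only regions (1.26%) and at 21 of the 168 WT-only regions (12.5%). Shared regions had 1.96% and the mixed pairings 1.64% to 4.07%. Without H3K4me3 the shares were close, 4.32% (80 regions) in del-cIDR and 5.53% (41 regions) in WT, with 6.67% in shared regions and 3.54% to 4.94% in the mixed pairings. Of the WT-only regions with H3K4me3, 6.55% and 11.3% overlapped a peak in the del-cIDR H3K9me3 libraries, and 2.38% and 7.14% in the WT ones. The H3K9me3 lists differ in length, so these 4 shares are not a comparison of genotypes. At equal H3K27ac list length the shares with H3K4me3 were 1.299% and 8.98%, and with any 1 library left out they ran from 1.27 to 1.41% for the mutant and from 6.61 to 10.7% for WT. Without H3K4me3, leaving out a library put either genotype ahead, at 3.30 to 5.29% for the mutant and 3.48 to 5.80% for WT.

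Among sites without H3K4me3 in the full lists, the balance of the genotypes differed with distance to the nearest H3K4me3 peak. Within 1 kb, del-cIDR alone had 43 regions (5.61% of those at that distance) and WT alone 24 (3.13%), a ratio of 1.79. Between 1 and 10 kb there were 460 (5.25%) and 270 (3.08%), a ratio of 1.70. Between 10 and 50 kb there were 884 (6.21%) and 291 (2.04%), a ratio of 3.04. Beyond 50 kb there were 465 (5.22%) and 156 (1.75%), a ratio of 2.98. The del-cIDR-only share thus changed little with distance, while the WT-only share fell. Shared regions made up 20.7%, 18.5%, 13.0% and 14.7% of the regions at these distances. Counts by distance were not taken at equal list length. WT-only regions lay nearer to H3K4me3, at a median of 15.2 kb against 21.8 kb for del-cIDR-only regions, 18.1 kb for shared regions and 16.5 to 18.8 kb in the mixed pairings.

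The pattern of the full lists was not limited to some chromosomes. With H3K4me3, both del-cIDR libraries had more peaks than both WT libraries on each of the 19 chromosomes, by 1.12-fold on chromosome 6 to 1.28-fold on chromosome 15. Without H3K4me3 this held on 16 of the 19, with ratios from 1.04 on chromosome 12 to 1.41 on chromosome 14, and the exceptions were chromosomes 6, 8 and 12. Regions found only in del-cIDR outnumbered those found only in WT on all 19 chromosomes in both classes. The smallest ratios were 2.06 on chromosome 12 (35 against 17 regions) with H3K4me3 and 1.21 on chromosome 6 (88 against 73) without. Without these 3 chromosomes the counts were 1051 and 120 with H3K4me3, and 1622 and 570 without. Counts by chromosome were not taken at equal list length. At that length the class without H3K4me3 had 922 del-cIDR-only and 998 WT-only regions over all chromosomes used.

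Agreement between a pair of libraries was measured as the bases that both cover, as a share of those that at least 1 covers. With H3K4me3 it was 64.4% for the del-cIDR pair and 57.1% for the WT pair. The 4 pairs of different genotype reached 54.2% to 57.1%, so the WT pair was no closer than del-cIDR replicate 1 with WT replicate 1. Without H3K4me3 the values were 34.9% for the del-cIDR pair, 32.4% for the WT pair and 28.7% to 31.1% for the others.

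Peaks with H3K4me3 were wider in the mutant over the full lists. Their median width was 727 and 719 bp in del-cIDR and 688 and 646 bp in WT, with no overlap between genotypes (723 ± 5.66 and 667 ± 29.7 bp, SD, n = 2 each, exact permutation p = 0.333). The share of at least 1 kb was 27.8% and 26.5% against 25.3% and 21.7%, and peaks of 2 kb or more numbered 237 and 254 against 179 and 112. Without H3K4me3 the median widths overlapped, at 508 and 479 bp in del-cIDR and 502 and 469 bp in WT (493.5 ± 20.5 and 485.5 ± 23.3 bp, SD, n = 2 each, exact permutation p = 0.667). Among peaks with a −log10 q of 5 or more the genotypes overlapped with H3K4me3 too, and the log2 ratio of the median widths was 0.023 in place of 0.12 (exact permutation p = 1). At equal list length both classes were wider in del-cIDR, 763 and 781 against 707 and 646 bp with H3K4me3, and 584 and 592 against 539 and 469 bp without. That cut took the peaks of lowest −log10 p from the longer lists, most from del-cIDR, and none from WT replicate 2. Median widths at equal length therefore reflect this trimming as well, and its part was not tested.

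In shared regions, where the same site is measured in each library, the median region with H3K4me3 held 913 and 938 bp under peaks in del-cIDR and 822 and 763 bp in WT. Without H3K4me3 it held 788 and 794 bp against 769 and 684 bp. Both mutant libraries were wider than both WT libraries at 3135 of 8145 regions with H3K4me3 (38.5%) and narrower at 588 (7.22%). Without H3K4me3 they were wider at 1408 of 4949 (28.5%) and narrower at 666 (13.5%). Over all shared regions 34.7% were wider and 9.58% narrower. In the mixed pairings, with the pair holding del-cIDR replicate 1 as the reference, 8.30% and 14.3% were wider and 11.4% and 19.1% narrower with H3K4me3. Without H3K4me3 they were 9.90% and 18.7% wider and 10.4% and 18.2% narrower. The median site was 1.13-fold wider in del-cIDR with H3K4me3 and 1.08-fold wider without. With H3K4me3 the median ratio was 1.175 at sites of 500 to 1000 bp and 1.07 at the 168 sites of 2000 bp or more. The shares did not follow that order, with 39.6% wider and 6.95% narrower in the former and 42.3% and 4.17% in the latter.

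**Figure D4:**
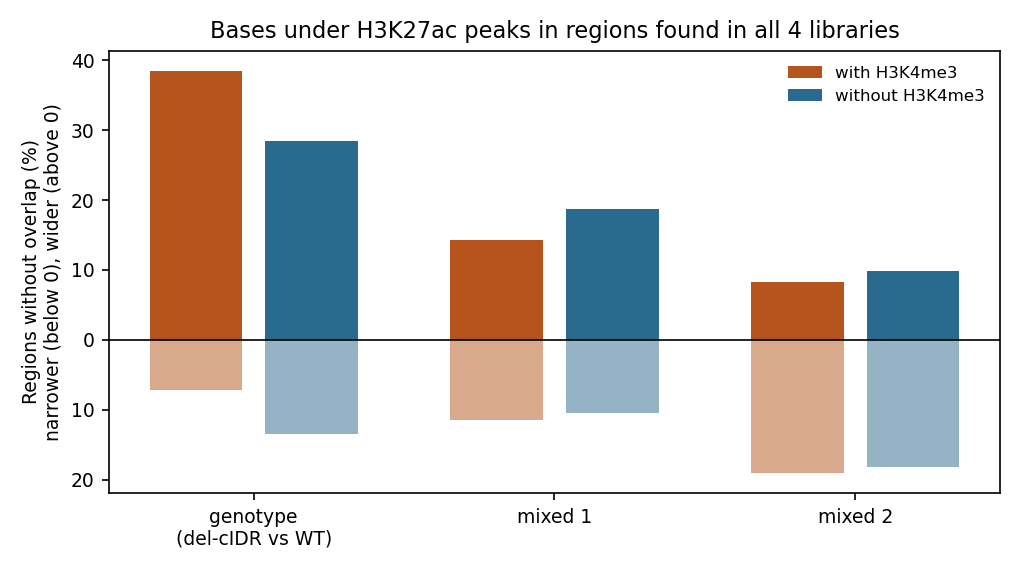
Share of shared H3K27ac regions (percent) in which both libraries of the first pair had more bases under peaks than both of the other (above 0) or fewer (below 0), for the genotypes and the 2 mixed pairings. The genotype split has the tallest upward bars, 38.5% with H3K4me3 and 28.5% without.

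No single region passed a test of width. limma on log2 bases under peaks, with each library centred on its median, called 0 of 13094 shared regions wider and 0 narrower at an adjusted p below 0.05 (0% in each direction), and the lowest adjusted p was 0.358. At an unadjusted p under 0.05 there were 1238 regions (9.45%), beside 423 (3.23%) and 396 (3.02%) in the mixed pairings. Each side of a mixed pairing holds a library of each genotype, so a difference between genotypes adds to the spread within sides. The mixed counts are thus not the level expected without a difference. Among the 1238, 388 with H3K4me3 were wider and 292 narrower in del-cIDR, and without H3K4me3 197 were wider and 361 narrower. Without centring the counts were 840 and 91, and 399 and 148, so relative to the median site the regions without H3K4me3 leaned to narrower while in absolute bases both classes leaned to wider. In simulated data, where every region was given the same pooled replicate spread, the fit called 98% of 4-fold and 11% of 2-fold width changes. Changes of 2-fold were thus mostly beyond its reach even there. Spread that differs between regions was not simulated, so the share of 4-fold changes within reach of the real fit is unknown. At chr5:130246931-130248552 a 4.56-fold difference had an adjusted p of 0.358 (limma).

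The regions with the smallest p in each class did not pass and are given as values. At chr19:38383816-38386055, with H3K4me3 in all 4 libraries, 1890 and 1723 bp lay under peaks in del-cIDR and 545 and 530 bp in WT, 3.36-fold more. At chr6:58571563-58573957 there were 2084 and 1890 bp against 761 and 670 bp, and this site carried H3K9me3 in all 4 libraries. Without H3K4me3, chr1:36126836-36129375 held 2535 and 2412 bp in del-cIDR and 793 and 825 bp in WT, the smallest p of all (limma, adjusted p = 0.358). In each of these 3 the 2 genotypes lay far apart and replicates close together. In the other direction, chr6:59176137-59177549, with H3K4me3, held 614 and 575 bp against 1408 and 1384 bp. Without H3K4me3, chr5:130246931-130248552 held 305 and 306 bp in del-cIDR and 1223 and 1587 bp in WT, 4.56-fold less, 2.48 kb from an H3K4me3 peak, and chr8:3450581-3452214 held 569 and 561 against 1555 and 1445 bp.

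Clusters were defined within a library as runs of at least 3 peaks of a class with gaps of at most 10 kb. Without H3K4me3 there were 401 and 603 clusters in del-cIDR and 345 and 271 in WT. They took up 8.86% and 11.4% of the peaks in del-cIDR and 8.26% and 7.57% in WT (10.1 ± 1.79 and 7.92 ± 0.488, SD, n = 2 each, exact permutation p = 0.333). Clusters of 5 peaks or more numbered 31 and 62 against 29 and 19 there, without overlap. With H3K4me3 they numbered 17 and 34 against 18 and 20, and del-cIDR replicate 1 lay below both WT libraries (exact permutation p = 1). With H3K4me3 there were 289 and 362 clusters in del-cIDR and 220 and 203 in WT, holding 7.68% and 8.87% against 6.76% and 6.48% of the peaks. In both classes the mutant libraries were above the WT libraries in clusters of 3 peaks or more and in their share of peaks, and del-cIDR replicate 2, the longest list, was the highest. This separation depended on the gap allowed. With gaps of at most 5 kb the mean difference in share fell from 1.66 to 0.163 percentage points with H3K4me3 (exact permutation p = 0.667) and from 2.22 to 0.227 without (exact permutation p = 1), and the genotypes overlapped. With gaps of at most 20 kb the differences were 4.22 and 5.22 percentage points (exact permutation p = 0.333 for each).

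Longer lists hold more clusters, and at equal length the classes again parted. The number of peaks per class still differed there, at 1.12 times that of WT in del-cIDR with H3K4me3 and 0.896 times without. The cluster counts are therefore not separate from the peak counts. They were not compared at an equal number of peaks per class. With H3K4me3 there were 246 and 258 clusters in del-cIDR and 203 in each WT library (7.15% ± 0.211 and 6.47% ± 0.0210 of the peaks, SD, n = 2 each, exact permutation p = 0.333). Without H3K4me3 there were fewer in the mutant, 212 and 234 against 276 and 271, with 6.45% and 7.37% of the peaks against 7.54% and 7.56% (exact permutation p = 0.333). The excess of clusters without H3K4me3 in the mutant was thus present in the full lists and absent at equal length.

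**Figure D5:**
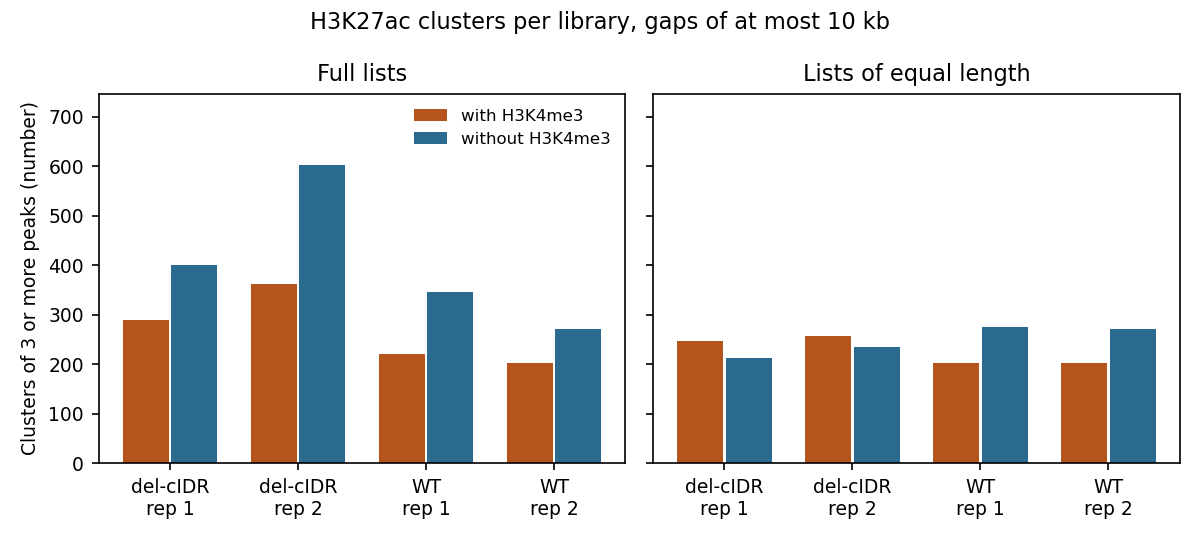
Clusters of at least 3 H3K27ac peaks with gaps of at most 10 kb per library (bars, number of clusters), with and without H3K4me3, from the full lists on the left and from lists of equal length on the right. Without H3K4me3 the order of the genotypes turns at equal length, while with H3K4me3 del-cIDR stays above WT.

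Clusters were also defined once over the merged regions, so that the same stretch could be read in each library. Without H3K4me3, 1889 runs of 3 or more regions held 7084 regions (21.7% of the class), and 1218 of them had peaks in all 4 libraries. In these 1218, both del-cIDR libraries had more bases under peaks than both WT libraries in 415 (34.1%) and fewer in 129 (10.6%). The mixed pairings gave 163 and 122, and 100 and 287. At equal list length the genotype counts were 185 (24.1%) and 146 (18.99%) of 769, beside 133 and 79, and 88 and 135. With H3K4me3 the mutant had more in 261 of 454 (57.5%) and fewer in 21 (4.63%), and at equal length in 182 and 27 of 380. Among the 1218 clusters without H3K4me3, large and small ones were close, with a median ratio of 1.20 in those of 5 regions or more and 1.19 in those of 3.

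The 6 clusters without H3K4me3 that held the most bases differed in their response. The largest, chr4:123503000-123549385, spanned 46.4 kb with 9 regions, 5 of them shared, and held 7409 and 7141 bp under peaks in del-cIDR and 7187 and 5445 bp in WT. The genotypes overlapped there. At chr6:91687024-91715900 there were 7201 and 8200 bp against 6058 and 4393 bp, and at chr16:84564782-84622266, a run of 12 regions over 57.5 kb, 7068 and 7517 bp against 5333 and 5345 bp. At chr11:88466676-88537524, 70.8 kb long, there were 6489 and 8470 bp against 4800 and 3814 bp, 1.74-fold more in del-cIDR. In these 3 the genotypes did not overlap. At chr6:125411538-125467865 the ratio was 1.01 (4989 and 6456 against 6237 and 5042 bp), and chr6:72805357-72868278, the run with the most regions at 14, had 5339 and 4974 bp against 6881 and 4322 bp.

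Of the 1889 clusters without H3K4me3 in the full lists, another 95 had peaks in both del-cIDR libraries and no WT library. The reverse held for 15, and the mixed pairings gave 19 and 25, and 13 and 46. Among the 32683 single regions of this class the same rule was met by 1852 (5.67%) and, in reverse, by 741 (2.27%). These counts of clusters with peaks in a single genotype were not taken at equal list length. Among the 1218 with peaks in all 4 libraries, the 4 with the largest ratio in each direction had a single peak in each library of the lower genotype. At chr18:82507221-82533152 there were 1819 and 3267 bp in del-cIDR and 353 and 416 bp in WT, 6.61-fold more, from 2 and 5 peaks against 1 in each WT library. At chr19:25448667-25466633 the values were 2313 and 1891 against 297 and 595 bp, at chr18:34771152-34777613 2241 and 1606 against 371 and 457 bp, and at chr10:19752629-19776385 1567 and 1452 against 361 and 308 bp. In the other direction, chr2:69719078-69723759 held 321 and 343 bp in del-cIDR and 2025 and 1247 bp in WT. The next 3, chr7:103038703-103053159, chr11:78290722-78300278 and chr4:124725195-124737618, had ratios of 0.261, 0.275 and 0.297. All 4 of these had 1 peak in each mutant library and 2 or 3 in each WT library. These 8 were chosen for their difference, so the values are a description. None of the 14 named clusters held a region with H3K9me3.

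The share of specific sites within 10 kb of a shared site was similar for both genotypes with H3K4me3 and lower for the mutant without it. Without H3K4me3, 412 of the 1852 del-cIDR-only regions (22.2%) and 219 of the 741 WT-only regions (29.6%) lay within 10 kb of a shared H3K27ac region, against 24.3% to 28.9% in the mixed pairings. In both sets a shared region with H3K4me3 was near more often than one without. The counts were 264 (14.3%) against 182 (9.83%) for del-cIDR-only regions and 153 (20.6%) against 87 (11.7%) for WT-only regions. The mixed pairings had the same order, at 14.4% to 18.4% against 11.3% to 13.2%. With H3K4me3 the shares were 23.5% and 23.2%, beside 17.4% to 22.5% in the mixed pairings.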

How the data were processed

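Peak lists of 4 H3K27ac CUT&Tag libraries, 2 of Alkbh5 del-cIDR and 2 of WT, were analysed, with 4 H3K4me3 and 4 H3K9me3 lists as annotation. Per the submitters' processing notes, fastp, BWA, SAMtools, Picard, MACS2 and featureCounts were used on GRCm39. Not given in the sources used here: versions, settings and whether a control library was used. The authors deposited 1 list per library with a fold enrichment (a ratio over background) and the −log10 of a p-value and q-value for each peak, made within that library. These values served to rank, filter and describe peaks within a list. The weakest peaks had a q of about 0.05, so weaker sites are not in the lists.

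Peaks on chromosomes 1 to 19 that shared 1 bp were merged. Coordinates count from 1. Single values per library were compared by exact permutation, two-sided, and widths by limma 3.58.1 (R 4.3.3) with Benjamini-Hochberg adjustment over 13094 regions and a threshold of 0.05, tested on simulated data. Counts of regions had no test and are set beside the 2 mixed pairings. Named regions are the 6 strongest per class and direction, the 3 smallest limma p per class and direction (a selection of these 12 is printed), the 6 largest clusters and the 4 most different per direction. The members, classes and rules were chosen with earlier results of these data known. Comparisons planned over gene lists were not made, since no annotation of GRCm39 was used. The closing section gives the alternatives.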

Additional observations from a re-analysis of the deposited data

How the results depend on the processing

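Peak number, median width and clustered share with H3K4me3 kept their direction under all alternatives tried, but not their size, and width calls were 0 under all. At equal list length the log2 ratio of peak number without H3K4me3 went from 0.36 to -0.16, and the difference in the share of clustered peaks from 2.22 to -0.64 percentage points. Restricting the lists to −log10 q of 5 or more instead raised the log2 ratios of peak number to 0.51 with and 0.55 without H3K4me3 and gave differences in clustered share of 2.21 and 2.16 percentage points. It took the log2 ratio of median width from 0.12 to 0.023 with H3K4me3 (exact permutation p = 1) and from 0.024 to -0.068 without. Gaps of 5 and 20 kb gave differences in clustered share of 0.163 and 4.22 percentage points with and 0.227 and 5.22 without H3K4me3. The difference in the share of peaks with H3K4me3, -1.06 percentage points over full lists, was 5.76, 6.88, 6, 5.65 and 5.49 among the top 5000, 10000, 15000, 20000 and 22810 peaks, lengths chosen after seeing the data. Shorter lists hold fewer weak peaks by construction, and the cause was not otherwise tested.

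Regions found only in WT with H3K4me3 (168) were 79 at that stricter q, 256 at equal length and 88 when H3K4me3 was required in all 4 libraries, and those without (741) were 265 at the stricter q. Regions only in del-cIDR without H3K4me3 (1852) were 1113 at the stricter q and 922 at equal length. Asking for the stricter q in each library of a genotype and for no peak of any strength in the other, added after seeing the data, gave 367 and 369 in del-cIDR (with and without H3K4me3) and 21 and 84 in WT. The stricter q lies just below the median of each WT list and further below that of each del-cIDR list. Cluster counts without H3K4me3 that were higher in del-cIDR went from 415 to 185 at equal length, also added after seeing the data.

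With each library left out in turn, the counts ranged over 2044 to 2859 and 2663 to 8933 (only in del-cIDR, with and without H3K4me3) and 298 to 700 and 1138 to 5207 (only in WT). The log2 ratios of peak number ranged over 0.22 to 0.36 with and 0.21 to 0.49 without H3K4me3, and those of median width over 0.07 to 0.16 and -0.023 to 0.075. Differences in clustered share ranged over 0.915 to 2.22 and 0.989 to 3.58 percentage points. The replicate numbers are not stated to mark a shared culture or day, and same-numbered libraries did not deviate together (r = 0.0014 across 13094 regions). With the replicate block the fits again gave 0 width calls and a lowest adjusted p of 0.278, and permutation within replicate numbers gave an exact p of 0.5, its smallest value. Depth is unknown, which limits every comparison of peak number.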

Other observations

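Peaks on chromosome X, which entered none of the comparisons above, numbered 958 and 1089 in the del-cIDR H3K27ac libraries and 640 and 581 in the WT ones. These come from full lists of 28912 and 33509 peaks in del-cIDR and 25853 and 23456 in WT. Counts on chromosome X were not taken at equal list length. On the mitochondrial chromosome there were 6 and 6 against 4 and 6 peaks.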
